A study of Rattus norvegicus with 90 samples.

Results

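Fetal liver of Sprague-Dawley rats was compared between dams given a low oral dose of Nafion byproduct 2 (NBP2) and dams given none. NBP2 is a polyfluorinated ether sulfonic acid from fluoropolymer production. The comparison took the 6 fetal libraries titled GD21 at 1 and 3 mg/kg/d, pooled, against the 3 fetal controls at 0 mg/kg/d, which makes 9 of the 90 libraries of the series. The 1 mg/kg/d group holds the litters of dams 2132, 2133 and 2134, the 3 mg/kg/d group those of dams 2135, 2136 and 2137, and the control group those of dams 2129, 2130 and 2131. For these 9 libraries dosing ran from GD17 to GD21 and tissue was taken 2 to 4 h after the last dose. The titles and the treatment text give the age as GD21 and the age entry gives it as GD20; it is called GD21 here. Every library came from a different dam and all belong to study block 144. Whether a fetal library holds 1 fetus or several is not given in the sources used here. RNA was read by TempO-Seq, in which paired detector probes are ligated on their transcript and the product is counted, so a gene is measured at its probe site. Values are given as CPM, the deposited estimated count scaled to the same total in every library.

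Fetal liver late in gestation is still a blood-forming organ as well as a metabolic one. PPAR-alpha is a nuclear receptor that binds fatty acids and many fluorinated acids. With its partner RXR it binds direct repeats of the half-site AGGTCA spaced by 1 base (DR1) near genes of fatty acid transport and oxidation. CAR and PXR are related receptors for foreign chemicals, known for raising Cyp2b and Cyp3a genes in liver.

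The promoters of Fabp1, Cyp4a2 and Cyp4a3 are shown because these had the smallest unadjusted p among the fixed set of lipid genes at low doses. Fabp1 encodes the liver fatty acid binding protein, and Cyp4a2 and Cyp4a3 encode fatty acid omega-hydroxylases. Each sequence is the 150 bases before the RefSeq start on the strand of the gene, 5′ to 3′, in build GRCr8: Fabp1 at chr4:104749190-104749339 on the plus strand, Cyp4a2 at chr5:134170909-134171058 and Cyp4a3 at chr5:134352237-134352386 on the minus strand. Capitals mark the match to AGGNCANAGGNCA (the DR1 pattern, read on either strand) in Fabp1 and the match to AGGTCA in the others.
Fabp1: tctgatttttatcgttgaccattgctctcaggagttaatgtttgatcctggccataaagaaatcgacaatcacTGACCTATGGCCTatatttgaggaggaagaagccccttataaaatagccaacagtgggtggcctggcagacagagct
Cyp4a2: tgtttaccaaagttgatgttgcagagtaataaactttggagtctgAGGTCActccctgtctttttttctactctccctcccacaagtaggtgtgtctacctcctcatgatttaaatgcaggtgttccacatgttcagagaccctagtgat
Cyp4a3: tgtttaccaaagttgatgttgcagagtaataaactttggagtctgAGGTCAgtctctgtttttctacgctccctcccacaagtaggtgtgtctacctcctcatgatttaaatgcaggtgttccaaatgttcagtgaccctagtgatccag
The Fabp1 match lies on the reverse strand and begins 77 bases before the start. The half-site of Cyp4a2 and that of Cyp4a3 both begin 105 bases before the start, at the end of a stretch the copies share. The longest run common to both is another stretch, of 56 bases, which lies nearer the start and does not hold the half-site. Over all 33469 RefSeq promoters of 300 bases (250 before and 50 after the start), the DR1 pattern occurred in 139 (0.415%) and AGGTCA in 5415 (16.2%), and every DR1 match that contains AGGTCA counts in both. Of 43 genes named here, 34 were found in that table by symbol. Among those 34, the DR1 pattern occurred in 1 and the half-site in 8. A match describes letters in this window and not binding.

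Of the 9 libraries, the one of dam 2135 stood apart: it held 3184903 counts over 8982 genes, against 5371178 or more counts and 13161 or more genes in the other 8. The control of dam 2129 stood apart the other way, with 17485 genes. Odorant, vomeronasal and taste receptor genes, which liver is not known to use, summed to 376 CPM over 814 genes in dam 2129 and 295 CPM over 48 genes in dam 2135, and to 18.8 to 65.6 CPM in the others. Haemoglobin genes took 4.3% of the control of dam 2131 and 12% to 19.7% of the other 8. Their share was 12.4% on average in controls and 15.5% at low doses (two-sided exact permutation test over 84 splits, p = 0.405, Benjamini-Hochberg adjusted over 4 library measures 0.619; the smallest p these groups allow is 0.0119). Markers of fetal hepatocytes summed to 14300 to 31800 CPM in controls and 28100 to 38900 CPM at low doses. Erythroid markers summed to 46000 to 167000 and 111000 to 179000 CPM, and mature hepatocyte markers to 17000 to 22700 and 14600 to 23100 CPM. Gene by gene, the log2 fold change was positive for 4 of 5 fetal hepatocyte, 6 of 16 erythroid and 3 of 9 mature hepatocyte markers tested. It was positive for 0 of 5 megakaryocyte, 1 of 7 granulocyte and 5 of 9 macrophage markers, beside 44.4% of all genes tested. In bulk liver, fewer cells of a type and less RNA per cell cannot be told apart. Y-linked genes were high in 1 of 3 controls, 3 of 3 libraries at 1 mg/kg/d and 1 of 3 at 3 mg/kg/d. The part of these measures in the gene results was not tested beyond the alternatives named below.

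**Figure D1:**
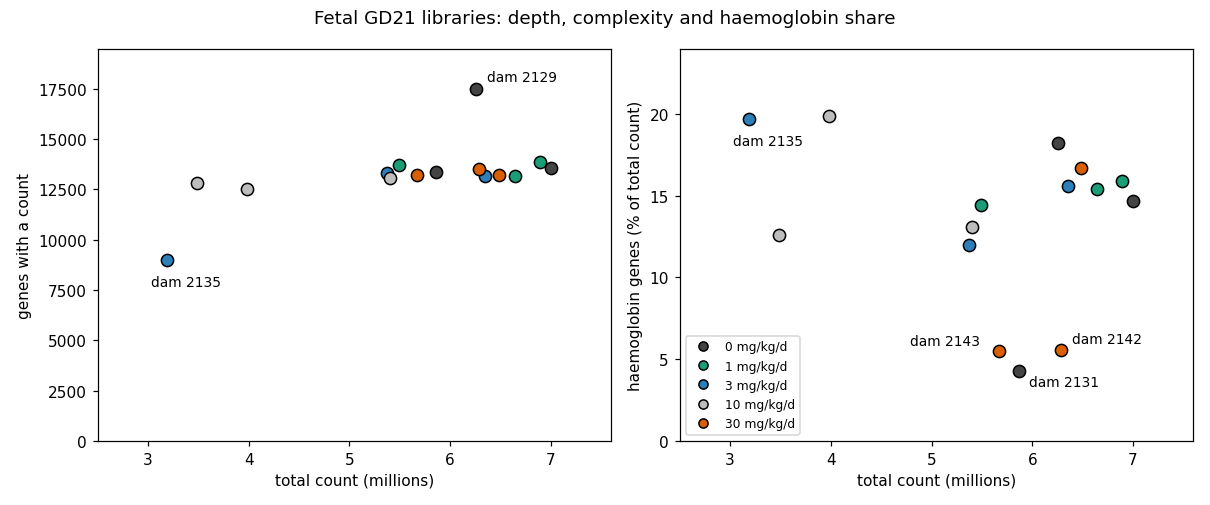
Genes with a count (left) and share of haemoglobin genes in percent (right) against total count, 1 point for each of the 15 fetal GD21 libraries, coloured by dose. The library of dam 2135 lies lowest at 8982 genes and the control of dam 2129 highest at 17485, and dams 2131, 2142 and 2143 hold the lowest haemoglobin shares, 4.3% to 5.53%.

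No gene passed an adjusted p of 0.05 in the pooled low doses against control. The edgeR quasi-likelihood test covered 10244 genes, of which 0 (0%) were called. At an unadjusted p under 0.05 there were 179 genes (1.75%), with a median SE of 0.357 on the log2 scale, and the smallest adjusted p was 1. Evenly spread p-values would put a share of 0.05 of the genes there, and 1.75% lies under it. The p-values were thus not evenly spread, so this share cannot decide whether some genes changed. Without the library of dam 2135 the test covered 10563 genes and called 0 (0%), with 291 at an unadjusted p under 0.05 and a median SE of 0.306. DESeq2 called 3 genes, all lower, with 254 at an unadjusted p under 0.05. Limma voom with quality weights called 0, with 710 under that threshold, so this count depended on the tool. Without the filter on low counts edgeR called 42 genes, of which 29 were among the genes tested with it.

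The 3 genes DESeq2 called, named after their values were seen, were low in the controls too. Lilrb2 and Lilrb3a, which encode inhibitory leukocyte receptors, had no count in any of the 6 low-dose libraries, where 3 counts would be 0.435 to 0.942 CPM. In the controls Lilrb2 stood at 2.88, 0 and 4.43 CPM and Lilrb3a at 4.11, 0 and 2.16 CPM for dams 2129, 2130 and 2131. Mepce, an RNA-capping methyltransferase gene, stood at 1.77, 0.0814 and 4.23 CPM in those controls and at 0.00018 to 0.0848 CPM at low doses. The control of dam 2130 therefore lies with the low-dose libraries for each of these genes. The counts of Mepce were not whole, as for genes whose reads are divided between copies. At 10 mg/kg/d Mepce stood at 0.151, 6.33e-12 and 0.0522 CPM, and at 30 mg/kg/d at 3, 8 and 7.84 CPM. Its log2 fold change at 30 mg/kg/d against control was 1.64 ± 0.84, with an interval from -0.18 to 3.45 (edgeR). Lilrb2 stood at 2.78, 1.76 and 2.01 CPM at 10 mg/kg/d and at 0.463, 3.18 and 3.53 CPM at 30 mg/kg/d. Lilrb3a stood at 5.08, 0.942 and 1.05 CPM and at 3.09, 2.67 and 3.41 CPM at those doses.

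Of the fixed set of lipid genes, Fabp1 (chr4:99063181-99066955 in rn6, the build of the counts) had the smallest unadjusted p. It stood at 209, 263 and 352 CPM in the controls. At 1 mg/kg/d it stood at 461, 654 and 329 CPM and at 3 mg/kg/d at 766, 395 and 690 CPM. Of the 6 low-dose libraries, 5 exceeded every control and 1 (dam 2134) lay between them. The log2 fold change was 0.97 ± 0.31 (SE; 95% interval 0.311 to 1.63), with an unadjusted p of 0.00668 and an edgeR adjusted p of 1. Without dam 2135 it was 0.92 ± 0.32. The values at 10 mg/kg/d, 1680, 1350 and 1360 CPM, and at 30 mg/kg/d, 1230, 3040 and 2610 CPM, lay above all 9.

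For Cyp4a2 and Cyp4a3, on chromosome 5, each low-dose library lay above each control. Cyp4a3 (chr5:134469270-134484840, rn6) stood at 28.7, 62 and 58.5 CPM in controls and at 78.8, 70, 99, 106, 78.8 and 107 CPM in the low-dose libraries of dams 2132 to 2137, so the groups did not overlap. Its log2 fold change was 0.84 ± 0.38 (adjusted p = 1, edgeR). Cyp4a2 stood at 20.7, 37.6 and 35.5 CPM in controls and 42.5 to 65.2 CPM at low doses, with a log2 fold change of 0.79 ± 0.37. These are not independent measurements: the ratio of Cyp4a3 to Cyp4a2 was within 1% of 1.65 in 14 of 15 fetal GD21 libraries and 1.39 in the control of dam 2129. Without the control of dam 2129 the Cyp4a3 difference was 0.56.

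Acot1 (chr6:107485249-107493799, rn6), which encodes an acyl-CoA thioesterase, had its higher values at 3 mg/kg/d. It stood at 2.24, 1.57 and 2.39 CPM in controls, at 2, 1.96 and 4.06 CPM at 1 mg/kg/d and at 9.11, 7.87 and 5.77 CPM at 3 mg/kg/d. All 3 libraries at 3 mg/kg/d exceeded all controls and all libraries at 1 mg/kg/d. How many of all genes were separated in this way was not counted. The log2 fold change at 3 mg/kg/d against control was 1.79 ± 0.68 (unadjusted p = 0.0179, edgeR adjusted p = 0.928). At 1 mg/kg/d it was 0.44 ± 0.71, and the difference between the doses was 1.35 ± 0.66 (adjusted p = 0.958, edgeR).

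Ehhadh (chr11:82945104-82978365, rn6), a peroxisomal beta-oxidation enzyme, stood at 13.4, 16 and 8.36 CPM in controls and 12.8 to 22.2 CPM at low doses. These overlapped, with a log2 fold change of 0.42 ± 0.45. Acaa1a, a peroxisomal thiolase, had a log2 fold change of 0.55 ± 0.27 with an interval from -0.02 to 1.13. Adtrp, which encodes a hydrolase of fatty acid esters, stood at 112, 138 and 153 CPM in controls and 164 to 250 CPM at low doses without overlap (0.57 ± 0.23, adjusted p = 1, edgeR). Vnn1, a pantetheinase gene, overlapped at 33.7 to 80.7 and 48.2 to 110 CPM. Pdk4, a pyruvate dehydrogenase kinase gene, stood at 3.36, 10.1 and 1.53 CPM in controls and 2.2 to 23.9 CPM at low doses, with the highest value in dam 2135. Its log2 fold change was 0.85 ± 0.67, and 0.37 ± 0.6 without dam 2135, and the groups overlapped.

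**Figure D2:**
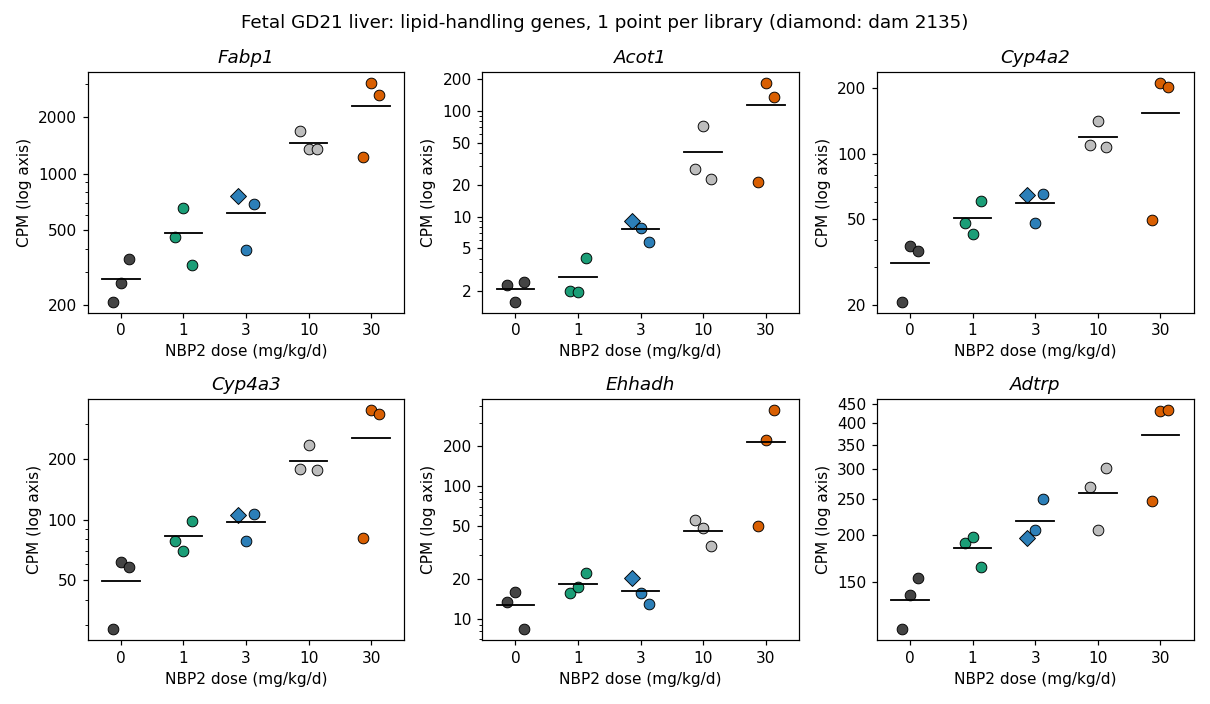
CPM on a log axis for 6 lipid-handling genes at each NBP2 dose in fetal GD21 liver, 1 point per library with a bar at the mean of 3 and a diamond for dam 2135. Fabp1 and Cyp4a3 lie higher at 1 and 3 mg/kg/d than at 0, with 1 overlapping library for Fabp1, and Adtrp does not overlap control, while Ehhadh overlaps control at 1 and 3 mg/kg/d.

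Over the list of PPAR-alpha lipid targets, 28 of 40 genes passed the filter and 0 were called. Of the 28, 23 had a positive log2 fold change (82.1%), with a median of 0.17, beside 44.4% and -0.04 over all genes tested. Unadjusted p was under 0.05 for 4, of which Cyp4a8, another gene of the Cyp4a family, was negative: it stood at 7.83, 13.6 and 2.39 CPM in controls and 0 to 7.83 CPM at low doses, with overlap (-2.16 ± 0.94, unadjusted p = 0.0363, edgeR adjusted p = 1). In the list 2 genes lay above all controls in all 6 low-dose libraries, where 68 of all genes did (0.664%) and 83 lay below (0.81%). Those 2 were Cyp4a2 and Cyp4a3, whose counts move together. Without dam 2135, 19 of 29 were positive, with a median of 0.13, beside 4831 of 10244 genes and a median of -0.015. The lead of the list over all genes was therefore smaller without this library. Plin2, the lipid droplet protein gene, had at most 0.429 CPM and was not tested, and Angptl4 had no entry under that symbol in the counts used.

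Another list was drawn from other libraries, with their own controls. In fetal GD18 liver, 13 of 12659 genes (0.103%) were called at 30 mg/kg/d against control, all higher. All of these but Adtrp, Hsd17b13, AABR07035374.1 and Cyp3a23/3a1 are also in the PPAR-alpha list, so the lists are not separate. In GD21 liver at low doses, 11 of these 13 were positive, with a median of 0.32, 4 had an unadjusted p under 0.05 and 3 lay above all controls (Adtrp and, moving together, Cyp4a2 and Cyp4a3), beside 0.664% of all genes tested. The exceptions were Hsd17b13 (-0.45 ± 0.45), a lipid droplet dehydrogenase gene, and AABR07035374.1 (-0.39 ± 0.62), a gene model inside the Cyp3a23/3a1 interval. AABR07035374.1 turned to 0.88 without the control of dam 2130, and Hsd17b13 was at -0.17 without the control of dam 2131. Without dam 2135, 10 of 13 were positive, with a median of 0.38.

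The direction of CAR and PXR targets turned with 1 library. Of 12 tested, 0 were called and 8 were positive, with a median of 0.26 that became -0.14 with 5 positive without dam 2135. Cyp2b1 stood near the floor, at 0.776 to 1.51 CPM in controls and 0.0747 to 5.1 CPM at low doses, and its log2 fold change of 1.15 ± 0.99 spanned 0. Cyp2b2 (-1.29 ± 1.35) and Cyp3a23/3a1 (0.1 ± 0.75) were as imprecise. The counts of Cyp2b1, Cyp2b2, Cyp3a23/3a1 and Ephx1 are not all whole, as for genes whose reads are divided between copies. Ephx1, microsomal epoxide hydrolase, stood at 46.2 to 56.6 CPM in controls and 58.7 to 67.2 CPM in 5 low-dose libraries, with 130 CPM in dam 2135. Its log2 fold change was 0.43 ± 0.2, and 0.28 ± 0.16 without dam 2135. Nr1i2, the PXR gene, stood at 107 to 143 and 101 to 163 CPM, and Ppara at 18.4 to 81.3 and 32.2 to 93.6 CPM; both overlapped. Nr1i3, the CAR gene, had at most 0.728 CPM in the 9 libraries and was not tested.

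**Figure D3:**
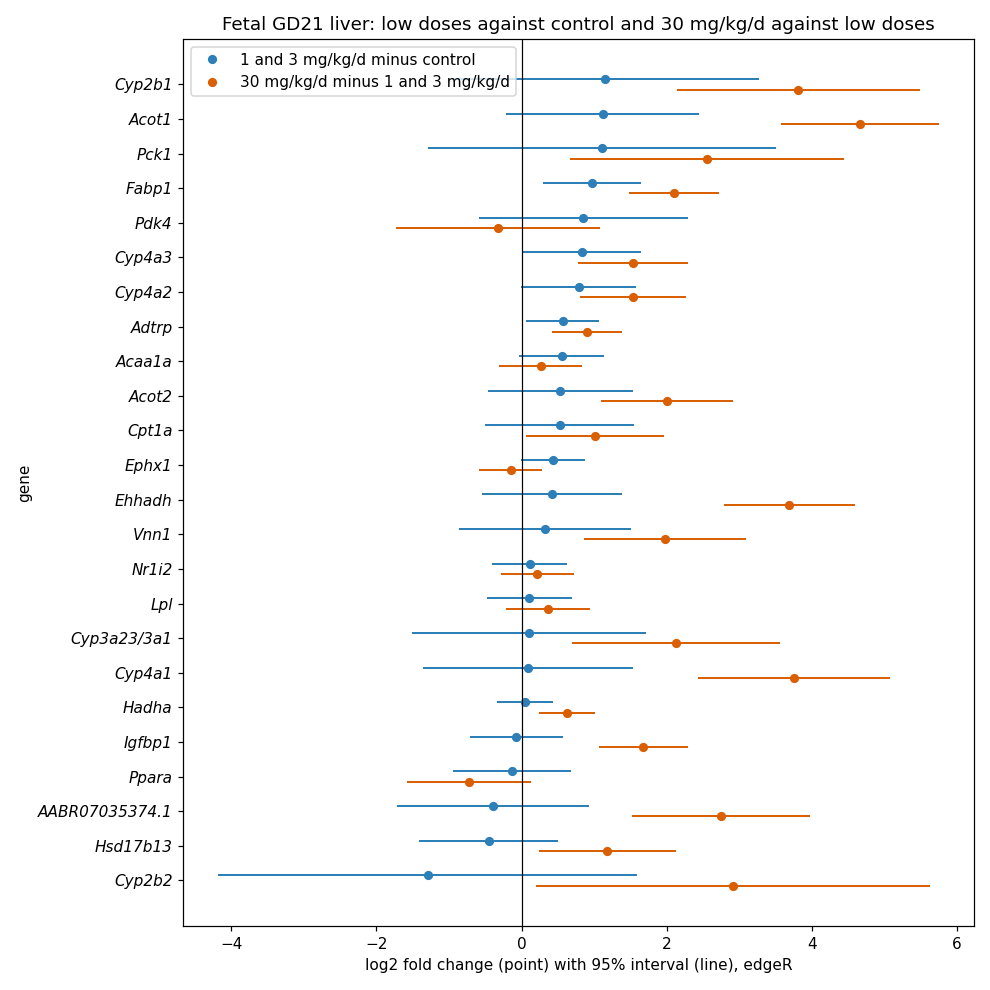
Log2 fold changes with 95% intervals (edgeR) for 24 lipid and xenobiotic genes, low doses against control in blue and 30 mg/kg/d against low doses in orange. The blue interval lies above 0 for Fabp1, Adtrp, Cyp4a2 and Cyp4a3, and the orange points of Acot1, Ehhadh and Cyp4a1 lie at 4.66, 3.69 and 3.76.

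The 18 other lists of metabolism, stress and growth held 0 called genes. Cholesterol biosynthesis had 12 of 19 positive (median 0.08, 0.27 without dam 2135) and mitochondrial beta-oxidation 11 of 19 (median 0.04). Fatty acid synthesis had 5 of 8 positive with a median of 0.29, which was -0.003 without dam 2135. Immediate early and heat shock genes had 1 of 5 positive, with a median of -0.97. In that list the transcription factor gene Egr1 stood at 9.11, 13.7 and 56.4 CPM in controls and 5.02 to 18.7 CPM at low doses, so the high control is dam 2131, also the control with least haemoglobin. Without dam 2131 the Egr1 difference was 0.18. Igfbp1, a secreted IGF-binding protein gene, stood at 480, 360 and 589 CPM at 1 mg/kg/d and 216, 211 and 263 CPM at 3 mg/kg/d, with controls at 269, 422 and 343 CPM. All 3 libraries at 3 mg/kg/d lay below all controls, and those at 1 mg/kg/d overlapped them (3 against 1 mg/kg/d, -1.16 ± 0.34, unadjusted p = 0.00386, edgeR adjusted p = 0.958). The share of all genes separated from control at 3 mg/kg/d alone was not counted.

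A further 10 genes were taken by rule: the 5 positive and 5 negative genes of smallest unadjusted p whose mean log2 CPM was 3 or more and whose groups did not overlap. None was called by edgeR with the filter on low counts, and without that filter Tmem126b passed (adjusted p = 0.0149, edgeR). Tmem126b (chr1:156262031-156275003, rn6), a complex I assembly factor gene, stood at 4.64, 13.3 and 11.6 CPM in controls and at 20.8, 23, 18.3, 67.2, 15.3 and 26.1 CPM in the libraries of dams 2132 to 2137 (1.42 ± 0.41, 1.09 ± 0.33 without dam 2135). Slc25a1, the mitochondrial citrate carrier gene, stood at 43.7 to 49.9 CPM in controls and 57.8 to 85.7 CPM at low doses (0.58 ± 0.18). Dph5, of diphthamide synthesis, stood at 17.9 to 20.3 and 22.6 to 53.1 CPM (0.64 ± 0.2). Fbxo3, an F-box protein gene, had 45.4 to 56.7 and 58.4 to 97.2 CPM (0.63 ± 0.21), and the gene model AABR07034673.1 had 10.9 to 16 and 18.4 to 47.4 CPM (0.75 ± 0.25).

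Among the negative genes, Arfgef1, which encodes an ARF exchange factor, stood at 18.7, 13.6 and 26.1 CPM in controls and 5.34 to 11.7 CPM at low doses (-1.15 ± 0.29). Dbr1 (chr8:107826424-107838340, rn6), the lariat debranching enzyme gene, stood at 12.5, 12.3 and 20 CPM in controls and 5.97 to 8.88 CPM at low doses (-0.97 ± 0.26). Npr1, a natriuretic peptide receptor gene, stood at 27.7 to 31.4 and 12.6 to 24.5 CPM (-0.71 ± 0.21). Bptf, of the NURF chromatin remodeller, stood at 62.9 to 82.5 and 19.8 to 53.4 CPM (-0.73 ± 0.28), and Fam149a at 126 to 151 and 87.8 to 122 CPM (-0.42 ± 0.16). At 30 mg/kg/d Tmem126b stood at 9.56, 15.3 and 10.2 CPM, after 28.3, 50.9 and 27.2 CPM at 10 mg/kg/d, and Dbr1 stood at 15.3, 16.5 and 16.2 CPM; both overlapped control. Fam149a, at 104, 80.3 and 81.7 CPM, and AABR07034673.1, at 18, 25.9 and 19.2 CPM, did not overlap control at 30 mg/kg/d. The same control libraries served to choose these genes, so this is not a separate test. The share of all genes without overlap at 30 mg/kg/d was not counted.

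**Figure D4:**
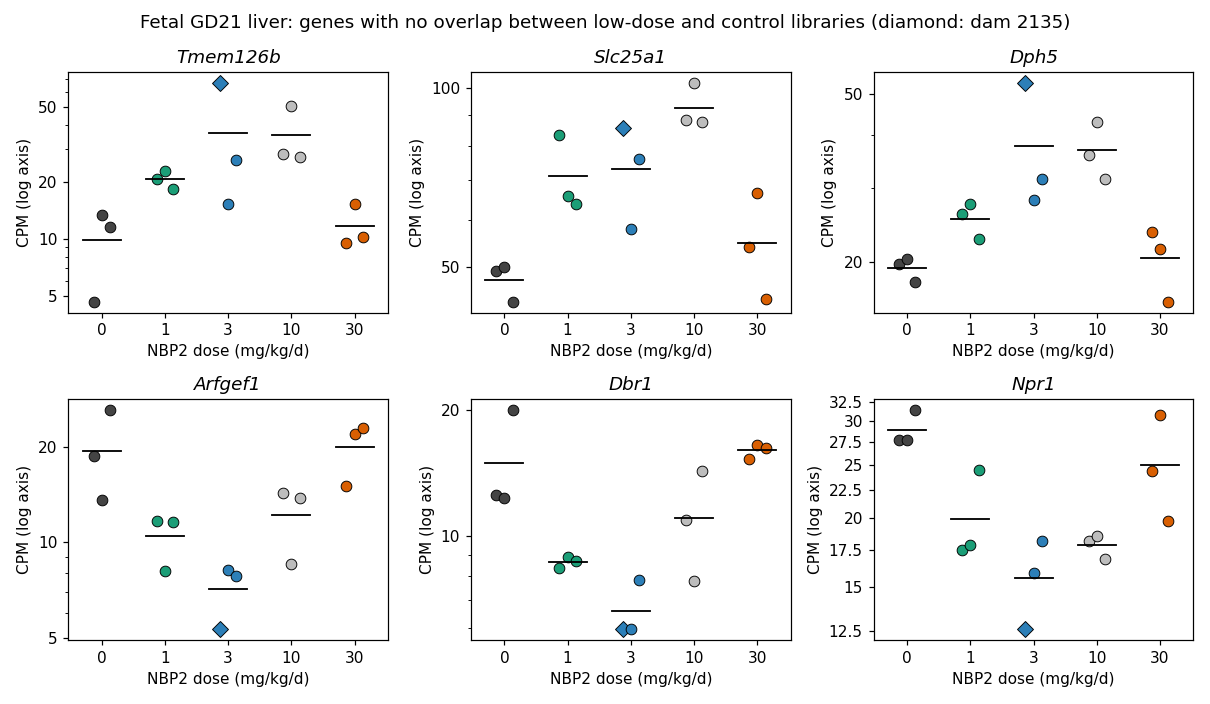
CPM on a log axis for 6 genes whose low-dose and control libraries do not overlap, at each NBP2 dose in fetal GD21 liver, 1 point per library with a bar at the mean of 3 and a diamond for dam 2135. Tmem126b, Slc25a1 and Dph5 lie above control at 1 and 3 mg/kg/d and Arfgef1, Dbr1 and Npr1 below, while 30 mg/kg/d overlaps control for each of them; none of the 6 was called by edgeR with the filter on low counts, and Tmem126b passed without it.

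The doses were also taken singly. At 1 mg/kg/d against control edgeR called 0 of 10244 genes (0%), with 63 (0.615%) at an unadjusted p under 0.05. Without dam 2135, which is in neither group, that count was 202 of 10563 (1.91%). With all libraries it was 91 by DESeq2 and 964 by limma voom with quality weights. The latter called 1 gene (Tusc3, an oligosaccharyltransferase subunit gene). At 3 mg/kg/d edgeR called 0 (0%), with 474 at an unadjusted p under 0.05, and 0 (0%) of 10563 without dam 2135. DESeq2 called 1 (Rnase1l1), with 630 under that threshold, and limma voom with quality weights had 409. By edgeR the 3 against 1 mg/kg/d comparison called 0 (0%), with 373 at an unadjusted p under 0.05, and 0 (0%) without dam 2135; limma voom with quality weights called 1 (Tusc3, higher at 3 mg/kg/d). Without the filter on low counts edgeR called 20 genes at 1 mg/kg/d, 136 at 3 mg/kg/d and 101 between the doses. A slope over the order of 0, 1 and 3 mg/kg/d called 0 of 9923 (0%), with 327 at an unadjusted p under 0.05. The Acot1 slope was 0.91 ± 0.25 per dose step and that of Fabp1 0.54 ± 0.16 (adjusted p = 0.953 for both, edgeR).

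The highest dose differed from the low doses. At 30 mg/kg/d against 1 and 3 mg/kg/d, 10 of 10244 genes (0.0976%) rose and 0 fell by edgeR. The direction was less one-sided by other tools: DESeq2 called 46 genes, 31 of them higher, and limma voom with quality weights called 449, 242 of them higher. Acot1 stood at 21.3, 184 and 134 CPM at 30 mg/kg/d, for dams 2141, 2142 and 2143, above the highest low-dose value of 9.11 CPM (log2 fold change 4.66 ± 0.51, edgeR adjusted p = 0.00107). Ehhadh stood at 50, 221 and 374 CPM, also above all low-dose libraries (3.69 ± 0.42, edgeR adjusted p = 0.00107). Fabp1 rose by 2.10 ± 0.29 (adjusted p = 0.00654), Cyp4a1, another omega-hydroxylase gene, by 3.76 ± 0.62 and Igfbp1 by 1.68 ± 0.28 (adjusted p = 0.0269 for both, edgeR). Crat, Egr1, Il1rn and Mepce, named after their values were seen, also rose. For Mepce the interval at 30 mg/kg/d against control, given above, spanned 0. The library of dam 2141 was the lowest of its group for each of these 5 genes given with fold changes, and for Cyp4a1 its 4.01 CPM lay within the low-dose range. Haemoglobin took 16.7% of that library and 5.53% and 5.47% of those of dams 2142 and 2143, and the part of this in the result was not tested apart from the covariate.

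These calls depended on single libraries. Acot1 and Ehhadh passed in all 12 fits that each left out 1 library. Without dam 2142 or 2143 only those 2 passed. Without any one of dams 2132, 2133, 2134, 2136 and 2137, 3 genes passed, and without dam 2141 28 did. Without dam 2135, 5 genes rose and 1 fell of 10563 (0.0568%). With the haemoglobin share as a covariate, the edgeR adjusted p was 0.03 for Acot1, 0.043 for Ehhadh, 0.0348 for Fabp1, 0.0247 for Egr1 and 0.0485 for Mepce, which kept their calls. Igfbp1 had a log2 fold change of 1.34 in that fit and did not pass (adjusted p = 0.29, edgeR). Cyp4a1, Crat and Il1rn did not pass in that fit either.

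At GD18, 8 fetal libraries at 1 and 3 mg/kg/d against 6 controls called 0 of 12659 genes (0%), with 296 at an unadjusted p under 0.05. Fabp1 had a log2 fold change of 0.15 ± 0.23 there and Cyp4a3 -0.02 ± 0.22. The difference between the ages, GD21 minus GD18, called 0 of 14697 (0%), with 630 at an unadjusted p under 0.05. It was 0.81 ± 0.4 for Fabp1 and 0.84 ± 0.41 for Cyp4a3 (adjusted p = 0.925 for both, edgeR). Dbr1 had the smallest p, with a difference of -1.15 ± 0.24 (adjusted p = 0.28, edgeR). The GD18 libraries came from 2 study blocks, entered as a term in the fit, and the GD21 libraries from another. The dosing days given above are those of the GD21 libraries, and those of the GD18 libraries are not reported here. Age, block and days of dosing therefore cannot be told apart.

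In the dams themselves, low doses at GD21 called 0 of 9238 genes (0%), with 545 at an unadjusted p under 0.05. Cyp2b1, the phenobarbital-inducible P450 gene, had the smallest p there: it stood at 23.7, 18.9 and 19.1 CPM in control dams and 40.7 to 83.2 CPM in the 6 low-dose dams, without overlap (1.46 ± 0.3, adjusted p = 0.813, edgeR). The share of all maternal genes without overlap was not counted, and the counts of Cyp2b1 are not all whole. Maternal Fabp1 overlapped, at 4800 to 5500 and 3670 to 6670 CPM (-0.14 ± 0.2). The fetal minus maternal difference called 0 of 10794 genes (0%), with 442 at an unadjusted p under 0.05, and was 1.08 ± 0.38 for Fabp1 and -0.31 ± 1.11 for Cyp2b1.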

How the data were processed

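Raw estimated counts for 20833 genes in 90 libraries were used as deposited by the authors. The submitters' processing notes name STAR 2.7.3a, Partek and build rn6 without their roles, and how reads were divided between near copies is not given in the sources used here. Of the estimated counts, 7.61% are not whole, and they were rounded for tests. Named genes whose counts are not all whole include Adtrp, Acot2, Cyp4a1, Cyp4a2, Cyp4a3, Cyp2b1, Cyp2b2, Cyp3a23/3a1 and Ephx1. They also include Fbxo3, AABR07034673.1, AABR07035374.1, Crat and Mepce. Per the labels, probes target 21119 genes, reads have 50 bases, and abundant transcripts were attenuated equally in all samples, so levels of the most abundant genes cannot be set against other genes.

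All 15 fetal GD21 libraries were fitted together by edgeR 4.0.16 under R 4.3.3 (TMM factors after filterByExpr, quasi-likelihood F tests, Benjamini-Hochberg adjustment, threshold 0.05, two-sided, prior count 0.125). The SE is the log2 fold change over the square root of F. DESeq2 1.42.0 and limma 3.58.1 were alternatives, with RLE factors, no filter, covariates and each library left out. The scripts were tested on simulated counts. Totals of the 9 libraries were 3184903 to 6998829. Chi-square per degree of freedom between libraries of a group was 13.1 to 133, over genes with 20 or more counts in the pair. Over that set of genes, libraries of a group therefore differed by more than counting alone gives. The part of counting in the precision of single genes, among them those with few counts, was not tested. Whether libraries are separate litters rests on the dam numbers. Dam and fetus share a dam number in the labels; over 15 pairs their residuals correlated across genes at a median of 0.052 (-0.038 to 0.121).

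Genes, lists and comparisons were chosen with earlier results of these data known. Named genes were 5 positive and 5 negative genes of smallest p without overlap whose mean log2 CPM was 3 or more, a fixed set of lipid and xenobiotic genes, genes that passed at the top dose in GD18 fetuses, up to 2 called genes of each list, and up to 3 called genes each way of each other comparison. There were 33 lists with 424 distinct genes, of which 365 are in the file. Promoters came from RefSeq, build GRCr8, unlike the rn6 counts. Some genes of the fixed set are not reported here; counts of genes include them.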

Additional observations from a re-analysis of the deposited data

Results flagged for a closer look

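Among 44 measures checked over the 6 low-dose libraries, 12 had 1 library far from the other 5, and 10 of these were the library of dam 2135. For independent values with a normal spread, chance flags about 1 in 20 such groups. These measures were on a linear scale and share the same libraries, so that rate is only a guide. Dam 2135 held 8982 genes with a count, against 13161 to 13873 in the other 5, and 295 CPM of receptor-family genes, against 18.8 to 65.6. It was the highest library for Tmem126b (67.2 CPM), Dph5 (53.1 CPM), AABR07034673.1 (47.4 CPM), Acot2 (27.3 CPM), Cpt1a (14.1 CPM), Hadha (582 CPM), Cyp3a23/3a1 (8.16 CPM) and Ephx1 (130 CPM). Without it the low-dose log2 fold change of Acot2, a mitochondrial thioesterase gene, went from 0.54 to 0.21, and that of Cpt1a, the carnitine palmitoyltransferase gene, from 0.52 to 0.22. Cyp2b2 was highest in dam 2134 (4.33 CPM) and Pck1, a gluconeogenic enzyme gene, in dam 2137 (4.65 CPM); both genes are near the floor.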

How the results depend on the processing

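Low doses against control gave 0 calls in the main edgeR fit and in every fit that left out 1 library (0 to 0). Without a filter on low counts 42 genes were called at low doses, 20 at 1 mg/kg/d, 136 at 3 mg/kg/d, 101 between the doses, 160 at 30 mg/kg/d against low doses, 68 at low doses without dam 2135, 7 for the dose order, 107 in dams and 46 for fetus minus dam. Many of these were genes the filter kept: 29 of 42, 20 of 20, 88 of 136, 57 of 101 and 147 of 160 in the first 5 comparisons. DESeq2 called 3 at low doses, 3 without dam 2135, 1 at 3 mg/kg/d, 46 at 30 mg/kg/d, 4 for GD21 minus GD18, 3 in dams and 3 for fetus minus dam. Limma voom with quality weights called 1 at 1 mg/kg/d, 1 between the doses and 449 at 30 mg/kg/d. The haemoglobin covariate gave 4 calls at low doses and 4 at each dose, all near-copy gene models whose fitted fold changes turned sign from the main fit. Fetal sex as a covariate, scored from Y-linked genes, gave 0 calls at low doses. Leaving out 1 library, 30 mg/kg/d against low doses gave 2 to 28 calls. The cause of these changes was not tested. Of 40 named genes tested at low doses, 25 kept their sign in every alternative and 15 did not. Fabp1 ranged from 0.77 to 1.18, Acot1 from 0.88 to 1.26 and Arfgef1 from -1.34 to -0.83. Tmem126b passed without the filter (adjusted p = 0.0149, edgeR).

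With dam as a replicate block, fetus minus dam gave 0 calls, as without it; this was the only comparison with libraries that share a dam. Leaving out dams 2129 and 2135 together was chosen after seeing the data, as were the alternatives without dam 2135. Depth limits genes near 3 counts, 0.429 to 0.942 CPM.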
